A study of Mus musculus with 12 samples.

Results

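The genes examined in the injured mouse spinal cord were Nnt, Ccl28, Lrmda, Entpd4, Wdfy1 and Ide, 6 candidates for differences between C57BL/6 substrains. They were taken by gene symbol from the platform's annotation, and the 6 genes had 1 probe set each, so 6 of the 19938 genes measured are described. Their choice drew on how far the knockouts lay from wild type in these same arrays, so those differences are given as a description, with intervals and no p-value, and counts past a threshold support nothing. The data were log2 expression values from whole-transcript arrays of 12 cords, 4 in each of 3 groups. The groups were mice lacking interleukin-1 alpha (Il1a KO), mice lacking interleukin-1 beta (Il1b KO) and wild-type mice (WT), with C57BL/6 given as the background strain of each. All mice were 8 to 12 weeks old, all had received a spinal contusion of 50 kdyn, and a 6 mm piece of cord around the lesion was taken after 24 h. The labels name no substrain, no breeding history and no deleted exons. The knockout lines and the wild-type mice may therefore differ in more than the deleted gene, and the deletion and any other genetic difference between the lines cannot be told apart in this design. The labels call the arrays biological replicates without naming animals, so the spread between arrays is the only error available.

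C57BL/6 mice are kept as substrains that have bred apart and have fixed different mutations. The best known is in Nnt, which encodes the nicotinamide nucleotide transhydrogenase of the inner mitochondrial membrane. This enzyme uses the proton gradient to make NADPH from NADH, and the NADPH feeds the glutathione and thioredoxin systems that remove peroxides. C57BL/6J mice carry a deletion of several Nnt exons, and C57BL/6N mice do not. A knockout line on one substrain set against wild-type mice of another can therefore differ at such genes. Substrain was not measured here.

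The targeted genes, the tissue and the sexes were checked first. Il1b averaged 6.42 ± 0.183 in the Il1b KO, against 7.83 ± 0.161 in WT (SD, n = 4 each), and Il1a averaged 4.97 ± 0.0749 in the Il1a KO, against 5.87 ± 0.232 in WT. Il1a was also low in the Il1b KO, at 5.10 ± 0.209 (SD, n = 4). Its signal was weak, at percentile 9.37 of all genes. The level of Il1a did not tell the knockouts apart (Il1a KO minus Il1b KO -0.13, 95% interval -0.37 to 0.12). All 5 neuron markers lay at percentile 90.0 or above among all genes and the liver markers lay between percentiles 5.69 and 37.3. Il1a KO replicate 1 stood apart in sex-linked genes, with Xist at 6.47 against 11.9 to 12.2 in the other 11 arrays. Its Y-linked Eif2s3y was 9.15, against 3.65 to 3.94 in the others, so the groups differed in this respect. The median log2 value of an array was between 8.16 and 8.20, and the 66 pairs of arrays correlated across genes with r of 0.993 to 0.999.

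RefSeq promoter sequences of build GRCm38.p6 were available for 3 of the 6 genes, Ccl28, Lrmda and Ide. The first pair is shown because Ccl28 was lower and Lrmda higher in both knockouts. Each run is the 250 bases before the start site on the gene's own strand, 5′ to 3′, and capitals mark motif matches on either strand. The motifs searched were the CCAAT box, the TATAAA box, the GC box GGGCGG and the kappaB consensus, the element bound by NF-kB downstream of the interleukin-1 receptor. The Ccl28 run lies at chr13:119623569-119623818 (plus strand) and the Lrmda run at chr14:22019462-22019711 (plus strand).
Ccl28: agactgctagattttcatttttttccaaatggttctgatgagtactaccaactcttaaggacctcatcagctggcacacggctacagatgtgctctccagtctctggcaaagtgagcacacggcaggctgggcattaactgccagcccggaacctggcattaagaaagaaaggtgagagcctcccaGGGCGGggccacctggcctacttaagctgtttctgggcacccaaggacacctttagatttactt
Lrmda: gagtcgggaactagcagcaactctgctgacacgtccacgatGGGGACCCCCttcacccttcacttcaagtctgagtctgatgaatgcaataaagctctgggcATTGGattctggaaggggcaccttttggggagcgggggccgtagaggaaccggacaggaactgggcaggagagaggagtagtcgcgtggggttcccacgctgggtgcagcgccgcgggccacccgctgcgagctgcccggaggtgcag
The Ccl28 window held 1 GGGCGG match, beginning 64 bases before the start site, and no match to the other 3 motifs. The Lrmda window held 1 kappaB match, beginning 209 bases before the start, and 1 CCAAT match on the opposite strand, which overlap neither each other nor another motif. Of 32851 mouse promoter windows of the same length, 7.25% held a kappaB match, 32.7% the GC box, 33.8% the CCAAT box and 12.4% the TATAAA box. GC content was 50.8% for Ccl28 and 62.4% for Lrmda, against a median of 52.4% over all windows. A match describes the letters of the window and does not show that a factor binds there.

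The 6 genes fell into 3 patterns. Nnt and Ccl28 were lower, and Lrmda was higher, in both knockouts than in WT, by nearly the same amount in each. Entpd4 was higher and Wdfy1 lower in the Il1a KO, with the Il1b KO close to WT. Ide lay at similar levels in all 3 groups. Past a limma adjusted p of 0.05 were 5 of the 6 genes in the Il1a KO, against 0.171% of all genes, and 3 of the 6 in the Il1b KO, against 0.813% of all genes. Between the knockouts 2 of the 6 were past it, against 0.652% of all genes. The arrays of both knockouts lay clear of WT in the same direction in Nnt, Ccl28, Lrmda and Entpd4, which held for 1.71% of all genes, and the first 3 of these passed in both, against 0.0652% of all genes. The arrays of the 2 knockouts did not overlap in Entpd4 and Wdfy1, against 7.24% of all genes. Since the genes were chosen from these contrasts, nothing is read from these counts. Both knockouts are set against the same 4 WT arrays, so an odd WT value would move both differences.

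**Figure D1:**
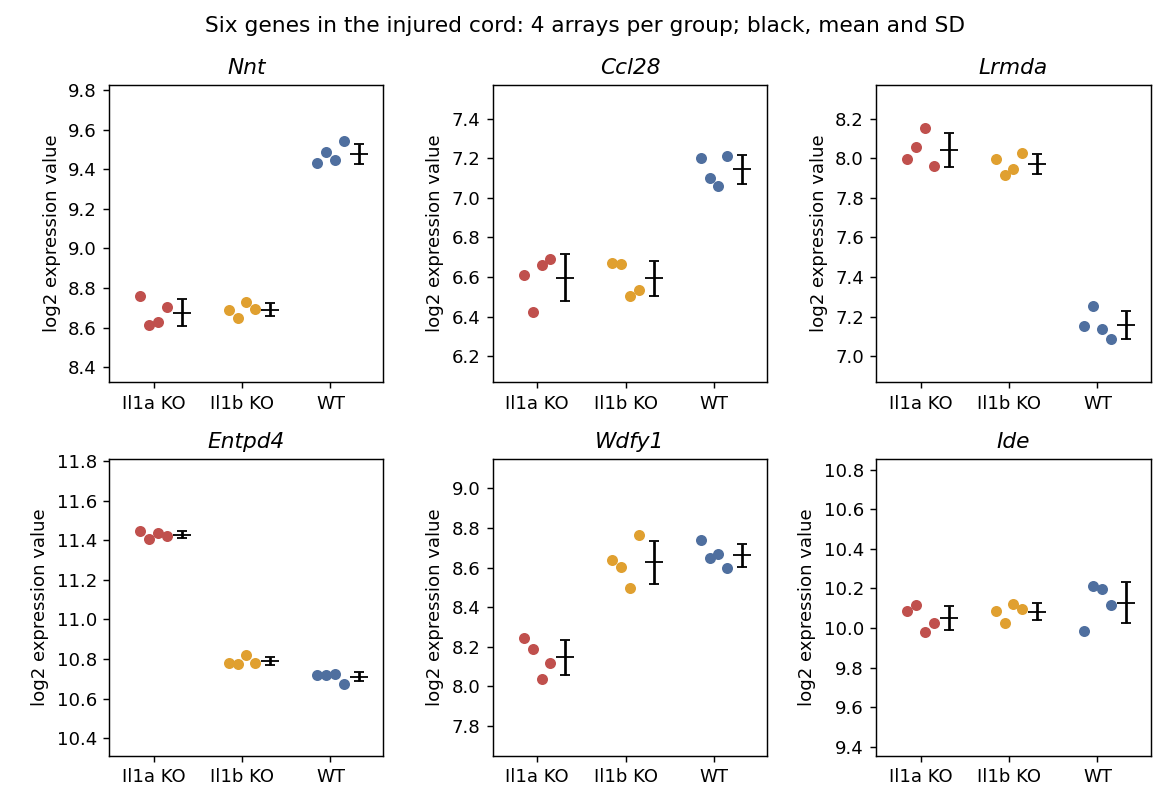
Log2 expression value (vertical axis, each panel spanning 1.5 log2 units) of the 6 genes in every array of the Il1a KO, the Il1b KO and WT (horizontal axis); coloured points are arrays and the black mark with its bar is the mean and SD of 4 arrays. Nnt and Ccl28 are low and Lrmda is high in both knockouts, Entpd4 and Wdfy1 stand apart in the Il1a KO (means 11.43 and 8.15), and Ide overlaps in all groups.

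Nnt was at 8.76, 8.61, 8.63 and 8.70 in the Il1a KO arrays, at 8.69, 8.65, 8.73 and 8.69 in the Il1b KO arrays, and at 9.43, 9.49, 9.45 and 9.54 in the WT arrays. All 8 knockout arrays lay below all 4 WT arrays. The nearest knockout and WT values were 0.67 log2 units apart for the Il1a KO and 0.70 for the Il1b KO. The means were 8.68 ± 0.0682 in the Il1a KO, 8.69 ± 0.0340 in the Il1b KO and 9.48 ± 0.050 in WT (SD, n = 4 each). The log2 difference from WT was -0.80 (95% interval -0.89 to -0.71) in the Il1a KO, a 1.74-fold lower level. In the Il1b KO it was -0.79 (95% interval -0.88 to -0.69), a 1.72-fold lower level. The knockouts differed from each other by -0.02 (Il1a KO minus Il1b KO, 95% interval -0.11 to 0.08), so any difference between them beyond 0.11 log2 units lies outside the interval. Signal that remained in the knockouts is not a measure of intact transcript, because it is not known here which exons the probes cover. By size the difference was number 8 of 19938 genes in the Il1a KO and number 20 in the Il1b KO.

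Ccl28 encodes a chemokine of mucosal surfaces that attracts lymphocytes and eosinophils through the receptors Ccr10 and Ccr3. It was at 6.61, 6.42, 6.66 and 6.69 in the Il1a KO arrays, at 6.67, 6.67, 6.50 and 6.53 in the Il1b KO arrays, and at 7.20, 7.10, 7.06 and 7.21 in the WT arrays. As with Nnt, no knockout array reached the lowest WT array. The means were 6.60 ± 0.120 in the Il1a KO, 6.59 ± 0.0883 in the Il1b KO and 7.14 ± 0.0739 in WT (SD, n = 4 each). Its log2 difference from WT was -0.55 in the Il1a KO (95% interval -0.69 to -0.41) and -0.55 in the Il1b KO (95% interval -0.69 to -0.41). These are 1.46-fold lower levels in each knockout. The signal of Ccl28 was low, at percentile 26.5 of all genes. The knockouts differed by 0.00 (95% interval -0.14 to 0.14). In RefSeq order Ccl28 was the fifth measured gene after Nnt on chromosome 13.

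Lrmda, on chromosome 14, encodes a leucine-rich protein whose loss in humans causes a form of albinism. It was at 7.99, 8.06, 8.15 and 7.96 in the Il1a KO arrays, at 7.99, 7.91, 7.95 and 8.03 in the Il1b KO arrays, and at 7.15, 7.25, 7.14 and 7.09 in the WT arrays. Every knockout array lay above every WT array, by at least 0.66 log2 units. The means were 8.04 ± 0.0858 in the Il1a KO, 7.97 ± 0.0510 in the Il1b KO and 7.16 ± 0.0694 in WT (SD, n = 4 each). The log2 difference from WT was 0.88 (95% interval 0.77 to 0.99) in the Il1a KO, a 1.85-fold higher level, and 0.81 (95% interval 0.70 to 0.92) in the Il1b KO, a 1.76-fold higher level. The knockouts differed by 0.07 (95% interval -0.04 to 0.18). Melanocyte markers lay between percentiles 11.5 and 33.8 of all genes. Their list mean per array ranged from 6.40 to 6.48 in the Il1a KO, from 6.30 to 6.50 in the Il1b KO and from 6.28 to 6.65 in WT, so the groups overlapped in these markers.

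Entpd4 encodes an enzyme of the Golgi and lysosomes that hydrolyses nucleoside diphosphates and triphosphates. It was at 11.45, 11.41, 11.44 and 11.42 in the Il1a KO arrays, at 10.78, 10.77, 10.82 and 10.78 in the Il1b KO arrays, and at 10.72, 10.72, 10.72 and 10.68 in the WT arrays. The Il1a KO arrays lay above all others, and the Il1b KO arrays lay just above the WT arrays without overlap, the nearest pair being 0.05 log2 units apart. The means were 11.43 ± 0.0180 in the Il1a KO, 10.79 ± 0.0222 in the Il1b KO and 10.71 ± 0.0231 in WT (SD, n = 4 each). The log2 difference from WT was 0.72 (95% interval 0.65 to 0.79) in the Il1a KO, a 1.64-fold higher level, and 0.08 (95% interval 0.01 to 0.15) in the Il1b KO. The Il1a KO exceeded the Il1b KO by 0.64 (95% interval 0.57 to 0.71). Entpd4 had the smallest spread within groups of the 6 genes, with a pooled SD of 0.0212, against a median of 0.0841 over all genes. RefSeq also lists a closely related copy, Entpd4b, on chromosome 14, and whether the Entpd4 probe set reads both is uncertain.

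Wdfy1 encodes a protein with WD repeats and a FYVE domain that sits on early endosomes and couples Toll-like receptors to the adaptor Ticam1. It was at 8.24, 8.19, 8.04 and 8.12 in the Il1a KO arrays, at 8.64, 8.60, 8.50 and 8.76 in the Il1b KO arrays, and at 8.74, 8.65, 8.67 and 8.60 in the WT arrays. The Il1a KO arrays lay below all the others, while the Il1b KO and WT arrays overlapped. The means were 8.15 ± 0.0897 in the Il1a KO, 8.63 ± 0.109 in the Il1b KO and 8.66 ± 0.0587 in WT (SD, n = 4 each). The log2 difference from WT was -0.52 (95% interval -0.65 to -0.39) in the Il1a KO, a 1.43-fold lower level, and -0.04 (95% interval -0.17 to 0.09) in the Il1b KO. The Il1a KO lay below the Il1b KO by a log2 difference of -0.48 (95% interval -0.61 to -0.35).

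Ide encodes insulin-degrading enzyme, a zinc protease that also cleaves amyloid beta. It was at 10.08, 10.12, 9.98 and 10.03 in the Il1a KO arrays, at 10.09, 10.02, 10.12 and 10.10 in the Il1b KO arrays, and at 9.99, 10.21, 10.20 and 10.12 in the WT arrays. The 3 groups overlapped, and WT replicate 1 was within the range of the Il1a KO. The means were 10.05 ± 0.0615 in the Il1a KO, 10.08 ± 0.0419 in the Il1b KO and 10.13 ± 0.104 in WT (SD, n = 4 each). The log2 difference from WT was -0.08 (95% interval -0.19 to 0.04) in the Il1a KO and -0.05 (95% interval -0.16 to 0.07) in the Il1b KO. Changes in Ide like those of the other genes in the Il1a KO, of 0.52 log2 units or more, lie outside these intervals. Fgfbp3, which is known to share a copy-number gain with Ide in some C57BL/6J stocks, had log2 differences of 0.00 in the Il1a KO and -0.01 in the Il1b KO.

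**Figure D2:**
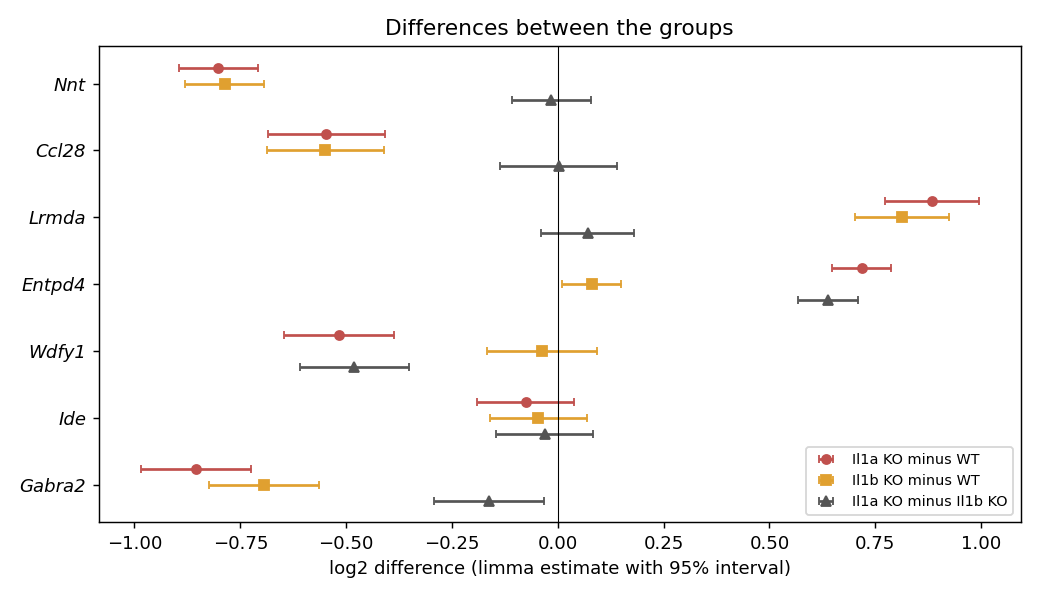
Log2 difference (horizontal axis, limma estimate with its 95% interval) of the 6 genes and of Gabra2 for the Il1a KO minus WT, the Il1b KO minus WT and the Il1a KO minus the Il1b KO. Nnt, Ccl28, Lrmda and Gabra2 lie well away from 0 against WT in both knockouts, and for Nnt, Ccl28 and Lrmda the interval between the knockouts includes 0, while Entpd4 and Wdfy1 differ between the knockouts by 0.64 and -0.48.

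In bulk tissue fewer cells of a type and less RNA per cell cannot be told apart, so cell type markers are given beside these differences. The mean of 4 oligodendrocyte markers ranged from 11.58 to 11.76 in the Il1a KO arrays, from 11.46 to 11.66 in the Il1b KO arrays and from 11.35 to 11.50 in the WT arrays. The Il1a KO and WT thus did not overlap in this list. The widest of its differences was that of Opalin, at 9.34 in the Il1a KO and 8.81 in WT. In the same order Mog averaged 11.81 and 11.61, Mbp 12.85 and 12.76, and Mag 12.56 and 12.49. By limma 0 of the 4 passed in the Il1a KO. Over all genes, 5.06% had no overlap between these groups, a share for single genes and not for means of a list. The mean of 4 neutrophil markers ranged from 7.53 to 7.88 in the Il1a KO, from 7.38 to 8.10 in the Il1b KO and from 7.95 to 8.19 in WT. The Il1a KO and WT again did not overlap. Of the 4 neutrophil markers, Ly6g fell in the Il1b KO (log2 difference -0.55, limma adjusted p = 0.00869), and the other 3 did not pass. These were at -0.09 (S100a8), 0.08 (S100a9) and -0.25 (Csf3r), so the list did not move together there. Ly6g had a low signal, at percentile 20.4 of all genes. In the Il1a KO 0 of the 4 passed. The 5 neuron markers ranged from 11.30 to 11.36 in the Il1a KO, from 11.30 to 11.40 in the Il1b KO and from 11.29 to 11.38 in WT. The surface epithelium markers, chosen because Ccl28 is an epithelial chemokine, ranged from 6.55 to 6.66 in the Il1a KO, from 6.41 to 6.73 in the Il1b KO and from 6.49 to 6.74 in WT. The 3 monocyte and macrophage markers ranged from 8.28 to 8.70 in the Il1a KO and from 8.72 to 8.95 in the Il1b KO. Their WT range was 8.55 to 9.10. The 4 astrocyte markers ranged from 11.556 to 11.592 in the Il1a KO and from 11.599 to 11.639 in the Il1b KO. Their WT range was 11.562 to 11.647. The knockouts did not overlap in these lists, and each overlapped with WT. Slc1a2, at 12.53 and 12.52, went against its astrocyte list. The part of cell composition in the differences of the 6 genes was not tested. When Il1a KO replicate 1 was left out because of its sex-linked genes, the Il1a KO minus WT differences were -0.83 for Nnt, -0.55 for Ccl28, 0.90 for Lrmda, 0.71 for Entpd4 and -0.55 for Wdfy1.

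The measured neighbours of the 6 genes along the chromosome were examined next, in windows set with earlier results of these data known. Nnt and Ccl28 lie in each other's windows and, as chosen genes, are left out of the neighbour counts. Of the 101 other genes within 10 measured places of one of the 6, 0 passed the limma test in the Il1a KO, in the Il1b KO or between the knockouts. At an unadjusted p under 0.05 there were 7 neighbours in the Il1a KO (6.93%, against 8.32% of all genes) and 9 in the Il1b KO (8.91%, against 13.0% of all genes). The arrays of the Il1a KO and WT did not overlap in 2 neighbours (1.98%, against 5.06% of all genes), and those of the Il1b KO and WT in 3 (2.97%, against 7.00% of all genes). The median log2 difference of the neighbours was 0.00 in the Il1a KO and -0.01 in the Il1b KO, against 0.00 over all genes in both comparisons. The neighbours of Lrmda ran from -0.09 to 0.16 in the Il1a KO, those of Entpd4 from -0.16 to 0.09 and those of Wdfy1 from -0.12 to 0.14.

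The stretch between Nnt and Ccl28 on chromosome 13 held 4 measured genes. Paip1, a partner of the poly(A)-binding protein, had log2 differences of 0.02 in each knockout. 4833420G17Rik was at -0.02 in the Il1a KO and 0.08 in the Il1b KO, and 3110070M22Rik at 0.13 and 0.08 in the same order. Tmem267, a membrane protein gene and the neighbour next to Ccl28, was at 9.09, 8.50, 8.97 and 8.93 in the Il1a KO arrays, at 9.35, 9.30, 9.39 and 9.10 in the Il1b KO arrays, and at 9.27, 10.03, 9.42 and 9.59 in the WT arrays. All Il1a KO arrays lay below all WT arrays, but the WT arrays were widely spread (SD 0.327). Its log2 difference of -0.71 in the Il1a KO was the largest among the 101 neighbours and did not pass (SE 0.151, limma adjusted p = 0.13), nor did that of -0.30 in the Il1b KO (adjusted p = 0.43). Beyond Ccl28, Hmgcs1, an enzyme of cholesterol synthesis, was at 0.07 in the Il1a KO and 0.06 in the Il1b KO. On the far side of Nnt, the growth factor gene Fgf10 was at -0.14 in the Il1a KO and -0.04 in the Il1b KO. Of the 4 genes between Nnt and Ccl28, Tmem267 was the one whose Il1a KO arrays did not overlap with WT.

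**Figure D3:**
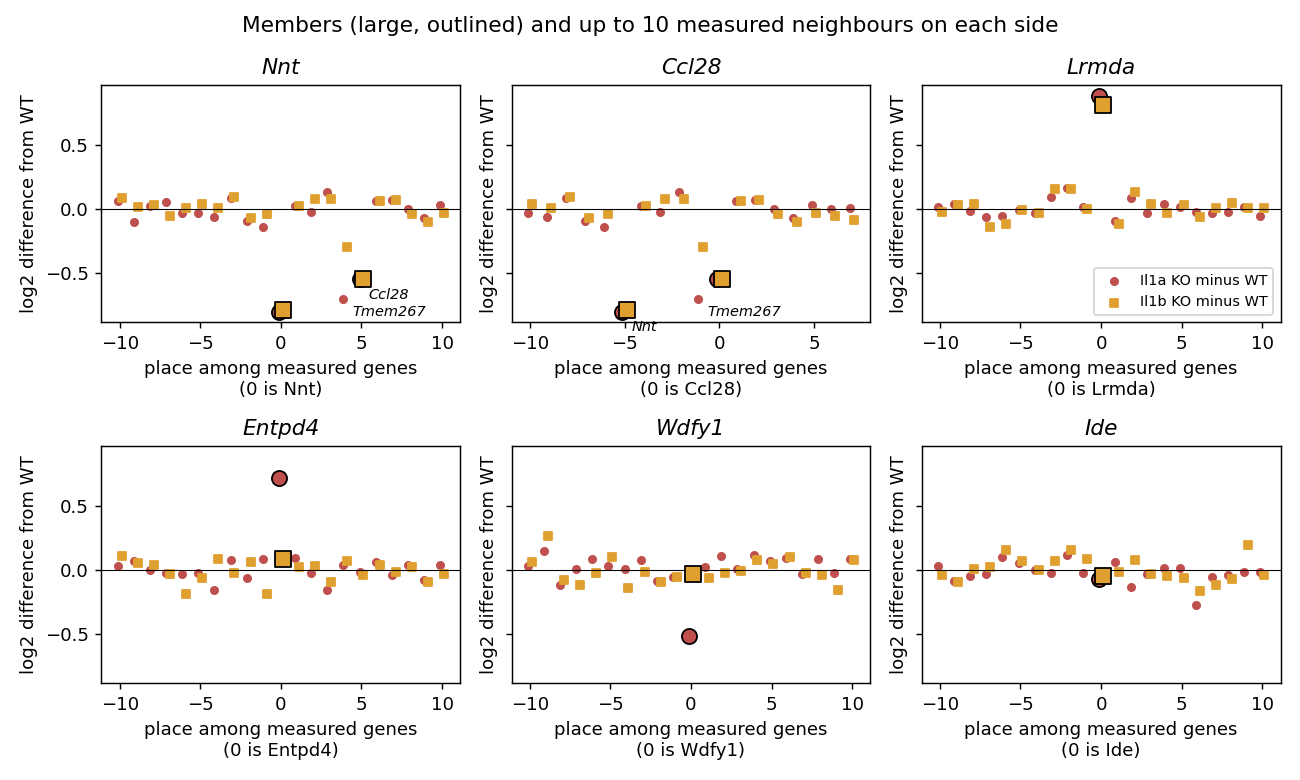
Log2 difference from WT (vertical axis) of the 6 genes, drawn large and outlined, and of up to 10 measured genes on each side in chromosome order (horizontal axis, in places from the gene), for the Il1a KO (circles) and the Il1b KO (squares). Apart from Nnt and Ccl28, the neighbour furthest from 0 is Tmem267, between Nnt and Ccl28, at -0.71 in the Il1a KO and -0.30 in the Il1b KO.

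Other genes known to carry a variant in some C57BL/6 substrain formed a second list, of 8 genes, 6 of which were measured. Gabra2, the alpha 2 subunit of the GABA-A receptor, is known in C57BL/6J for an intronic deletion that lowers its expression in brain. It was at 9.62, 9.49, 9.43 and 9.40 in the Il1a KO arrays, at 9.71, 9.65, 9.65 and 9.58 in the Il1b KO arrays, and at 10.21, 10.42, 10.44 and 10.29 in the WT arrays. No knockout array reached WT. Gabra2 fell in the Il1a KO (log2 difference -0.86, SE 0.0602, limma adjusted p = 1.37e-05) and in the Il1b KO (log2 difference -0.69, SE 0.0602, limma adjusted p = 3.48e-05). It was listed with its fall in these arrays already known, so its call is no independent support. The other 5 did not pass in either knockout. Crb1, a photoreceptor polarity gene mutated in C57BL/6N, was at 0.16 in the Il1a KO and 0.01 in the Il1b KO. Cyfip2, an actin regulator with a missense change in C57BL/6N, was at 0.05 and 0.07 in the same order. Dock2, a guanine nucleotide exchange factor of leukocytes, was at -0.03 and 0.04, and Mmrn1, a platelet protein gene, at -0.05 and -0.05. The signal of Mmrn1 was very weak, at percentile 3.11 of all genes, and that of Crb1 was low, at percentile 20.1. Small differences in these 2 genes therefore say little. A missense change need not alter the level of a transcript, so these levels do not show which allele a mouse carried. The list's median was -0.01 in the Il1a KO and 0.00 in the Il1b KO, against 0.00 over all genes in each.

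Genes that supply NADPH alongside the Nnt enzyme, or use it directly or through glutathione or thioredoxin, were then examined, with Sod2 added to them. Of 22 listed genes, 20 were measured. By limma 0 of the 20 passed in the Il1a KO, the Il1b KO or between the knockouts, and 3, 0 and 3 had an unadjusted p under 0.05 in these comparisons, which is 15%, 0% and 15% of the list, against 8.32%, 13.0% and 7.79% of all genes. The median log2 difference was -0.02 in the Il1a KO and 0.01 in the Il1b KO, against 0.00 over all genes in each, and the values ran from -0.18 to 0.13 in the Il1a KO and from -0.08 to 0.09 in the Il1b KO. Among mitochondrial suppliers, Idh2, the NADP-dependent isocitrate dehydrogenase, was at -0.10 in the Il1a KO and -0.02 in the Il1b KO. Nadk2, the mitochondrial NAD kinase, was at 0.13 and 0.02 in the same order. Glud1, glutamate dehydrogenase, was at 0.03 and 0.02, and the malic enzyme gene Me3 at 0.06 and 0.07. Among direct or indirect users, Gsr, glutathione reductase, was at -0.09 in the Il1a KO and -0.02 in the Il1b KO. Txnrd2, the mitochondrial thioredoxin reductase, was at -0.02 and -0.04. Prdx3, the mitochondrial peroxiredoxin, which draws on NADPH only through thioredoxin, was at -0.03 and -0.08. Also in the list was Sod2, which turns superoxide into peroxide without itself using NADPH, at 0.03 and 0.01.

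The lowest value in the NADPH list was that of Pgd, the cytosolic phosphogluconate dehydrogenase of the pentose phosphate pathway. Pgd was at 9.73, 9.81, 9.90 and 9.78 in the Il1a KO arrays, at 9.91, 9.96, 9.86 and 9.87 in the Il1b KO arrays, and at 9.92, 10.01, 9.94 and 10.05 in the WT arrays. The Il1a KO and WT arrays did not overlap, the Il1b KO and WT arrays did, and the difference of -0.18 in the Il1a KO did not pass (SE 0.0465, limma adjusted p = 0.239). Pgd was the 1 gene of the 20 measured without overlap between the Il1a KO and WT (5%, against 5.06% of all genes). That is near the share of all genes, so nothing is read from it. Nadk, the cytosolic NAD kinase, was at -0.07 in the Il1a KO and 0.09 in the Il1b KO and did not pass in either.

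**Figure D4:**
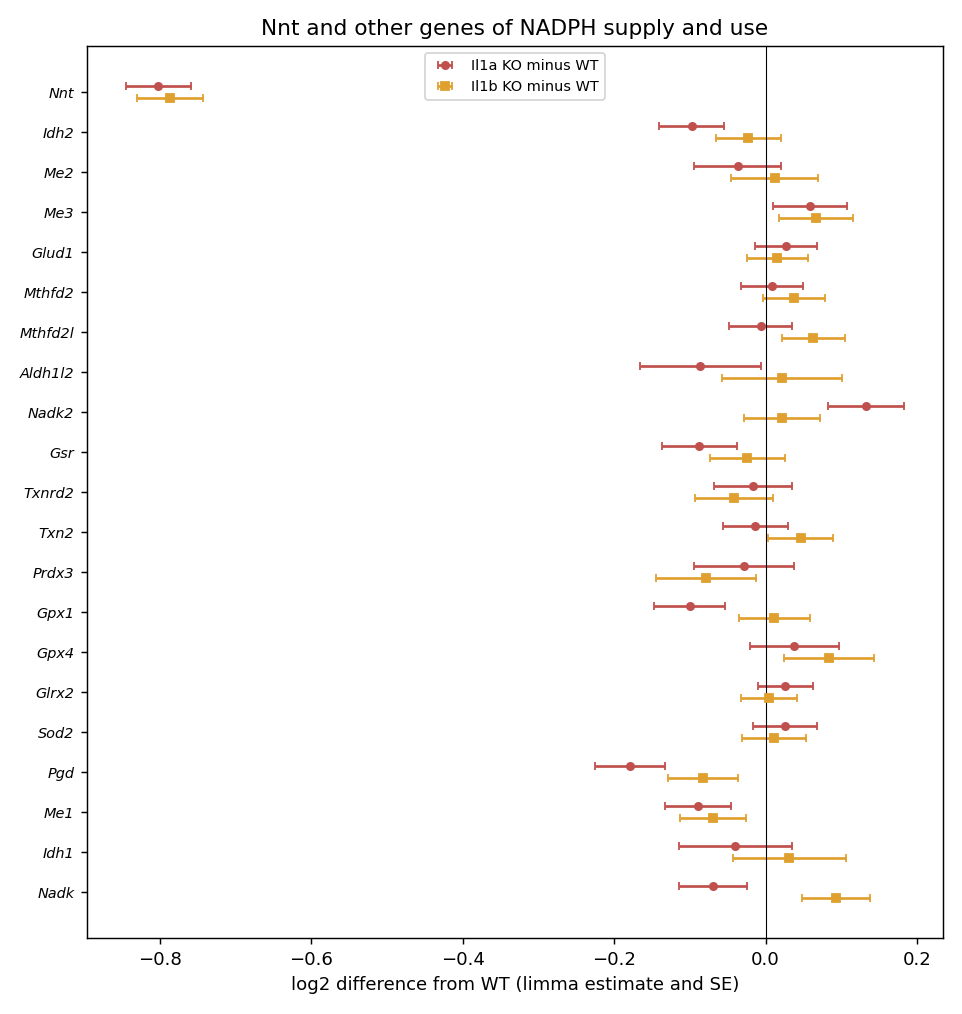
Log2 difference from WT (horizontal axis, limma estimate with its SE) of Nnt and of 20 other genes of NADPH supply and use, for the Il1a KO (circles) and the Il1b KO (squares). Nnt lies at -0.80 and -0.79, whereas the 20 others lie between -0.18 and 0.13. They include genes that use NADPH only through glutathione or thioredoxin, and Sod2, not itself a user of NADPH.

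Relatives and partners of the other 5 genes were a last list, with 23 of 25 measured. By limma 0 of the 23 passed in any of the 3 comparisons, and an unadjusted p under 0.05 was found for 1 in the Il1a KO (4.35%, against 8.32% of all genes), 4 in the Il1b KO (17.4%, against 13.0% of all genes) and 1 between the knockouts (4.35%, against 7.79% of all genes). The list's median was 0.01 in the Il1a KO and 0.02 in the Il1b KO, against 0.00 over all genes in each. Of the relatives of Entpd4, the intracellular enzyme gene Entpd7 was at 0.14 in the Il1a KO (limma adjusted p = 0.332) and 0.11 in the Il1b KO. Entpd6 was at 0.02 in the Il1a KO and 0.15 in the Il1b KO (limma adjusted p = 0.261), and Entpd5, of the endoplasmic reticulum, at 0.03 and 0.12. Entpd1, the ectoenzyme CD39 of microglia and lymphocytes, was at 0.01 in the Il1a KO and 0.14 in the Il1b KO. In the same order Entpd3 was at 0.06 and 0.10, Entpd2 at -0.02 and -0.08, and Entpd8 at -0.03 and -0.08. The receptors of Ccl28 had log2 differences of 0.00 (Ccr10) and -0.09 (Ccr3) in the Il1a KO, and of -0.11 (Ccr10) and 0.01 (Ccr3) in the Il1b KO. Near Wdfy1 in function, Tlr3, a sensor of double-stranded RNA, was at 0.18 in the Il1a KO and -0.01 in the Il1b KO, and Tlr4, the endotoxin receptor, was at -0.15 and 0.02. The adaptor gene Ticam1 was at 0.01 and 0.02. Among other proteases that cleave the peptides Ide cleaves, Mme (neprilysin) was at 0.01 in the Il1a KO and 0.07 in the Il1b KO, and Ece1 at -0.04 and 0.02. The Rab GTPase genes Rab32 and Rab38, which act in melanosome formation and are tied to LRMDA in human cells, were at -0.13 and 0.12 in the Il1a KO and at -0.06 and 0.06 in the Il1b KO.

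The genes with the most similar profiles were found from the root mean square difference over the 12 arrays, after each gene was centred on its own mean. Nearest to Nnt were Gabra2 (0.0989 log2 units), Ccl28 (0.145) and Il1a (0.187), against a root mean square of 0.377 for Nnt about its own mean. Nearest to Ccl28 were Acat3 (0.134) and Ermard (0.145), both on chromosome 17, and then Nnt (0.145). Acat3, an acetyl-CoA acetyltransferase gene, averaged 8.46 in the Il1a KO, 8.55 in the Il1b KO and 8.90 in WT. Nearest to Lrmda were Pkd2l1 (0.187), an ion channel gene of cells around the central canal, Ankub1 (0.197) and Aim2 (0.220), a sensor of cytosolic DNA. These 3 genes lie on chromosomes 19, 3 and 1.

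Genes of chromosome 8 were the nearest to Entpd4 and Wdfy1, which lie on chromosomes 14 and 1. For Entpd4 these were Tox3 (0.0756), which encodes a nuclear HMG-box protein, and Coq9 (0.149), needed for ubiquinone synthesis, followed by Hsd11b1 (0.160) of chromosome 1. Tox3 averaged 8.75 in the Il1a KO, 8.21 in the Il1b KO and 8.13 in WT. For Wdfy1 the nearest were Mri1 (0.109), Gadd45gip1 (0.113) and the noncoding RNA Crnde (0.124), with own root mean squares about the mean of 0.322 for Entpd4 and 0.248 for Wdfy1. Gadd45gip1 averaged 9.26 in the Il1a KO, 9.78 in the Il1b KO and 9.69 in WT. Ide varied little (0.0712 about its own mean), and its nearest genes, Glce (0.0267), Septin2 (0.0282) and Ybx1 (0.0286), varied as little. These distances rank profiles over the same 12 arrays and carry no test.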

How the data were processed

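Whole-transcript arrays of 12 injured spinal cords were analysed from the log2 values that the authors deposited, with a single value for each probe set on an array. The tools GCOS 1.4, Partek, limma and RMA are named per the submitters' processing notes, without saying what each did. That the log2 values are RMA summaries is inferred from this list and from near-equal quantiles, so shifts common to all genes would not show and small signals are compressed. The build of the annotation is not given in the sources used here. Among all 35557 probe sets, 21789 had 1 gene symbol in the platform annotation and were used, with the highest-mean set kept per gene, which left 19938 genes. Gene order came from RefSeq (GRCm38.p6), which placed 19856.

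Group means were estimated over all 12 arrays together with limma 3.58.1 in R 4.3.3, without a trend, and tests were two-sided. Adjusted p is Benjamini-Hochberg over all genes within a contrast, with a threshold of 0.05. The fit was tested on simulated data. The number of arrays, 4 a group, limits the precision. Members, lists and neighbour windows were chosen with earlier results of these data known. Named genes were the members, the nearest 3 profiles of each, list genes and neighbours that passed, and the 2 list genes with the smallest p in each knockout. Other genes were named after their values were seen, mostly as examples of known function. Of the listed genes and markers, 8 were not analysed here. Alternatives were another summary of probe sets, other scalings, a filter, a trend, fits of the compared groups only, a replicate block and each array left out.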

Additional observations from a re-analysis of the deposited data

Results flagged for a closer look

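Of 21 groups of 4 arrays examined for the 6 genes and Gabra2, 2 held an array far from the other 3, and chance alone gives this in about 5% of groups. Both concern Entpd4. Il1b KO replicate 3 was at 10.82, against 10.77 to 10.78 in the other 3 arrays of its group. WT replicate 4 was at 10.68, against 10.72 in each of the others. Both gaps are small beside the log2 difference of 0.72 between the Il1a KO and WT. The Entpd4 difference between the Il1b KO and WT is itself small, at 0.08, though larger than either gap. The nearest arrays of these groups were 0.05 log2 units apart.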

How the results depend on the processing

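The differences of the 6 genes were recomputed under 20 alternatives in 3 comparisons, and 359 of 360 values moved by less than the spread within groups. The exception was Entpd4 in the Il1b KO, whose difference from WT of 0.08 became 0.05 after the values were quantile-normalized again. Many of the 360 values could not move, so their stability shows little. Each gene had 1 probe set, which another summary of probe sets leaves as it is. The filter, the trend, the fits of the compared groups and the replicate block keep the difference of group means. Leaving out an array of the group outside a comparison also keeps it. Gabra2 was called in both knockouts in all 19 refits of the gene table, with limma adjusted p up to 6.72e-04 in the Il1a KO and 5.56e-04 in the Il1b KO.

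Counts over all genes were less stable. With an intensity trend and robust fit, 74 genes passed in the Il1a KO and 309 in the Il1b KO, against 34 and 162, and with only the groups compared, 15 and 85 passed. Leaving out 1 array at a time gave 18 to 49 genes in the Il1a KO, with 18 without WT replicate 4 and 19 without Il1a KO replicate 3 or 4. It gave 106 to 177 in the Il1b KO, with 106 without WT replicate 4 and 107 without Il1b KO replicate 1, and 88 to 146 between the knockouts. The number of neighbours, Nnt and Ccl28 left out, that passed was 0 to 1 in these left-out fits in all 3 comparisons. The single gene was Myof in the Il1a KO without WT replicate 1 (-0.34, adjusted p = 0.0364), Epha4 in the Il1b KO without WT replicate 2 or 3, and Synb between the knockouts without Il1a KO replicate 1. Epha4 also passed, as 1 neighbour, with the lowest 20% of genes left out (adjusted p = 0.0354) and with the trend (adjusted p = 0.0226), against adjusted p = 0.051. The cause of these changes was not tested. The NADPH and partner lists had 0 calls under each alternative run.

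Arrays of 1 replicate number share only a number: the deviations of same-numbered arrays correlated between -0.37 and 0.44, over 0.1 in 2 of 12 pairs, and 4 of 24 array-by-group comparisons were best with their own number. With the replicate number as a block, 26 genes passed in the Il1a KO, 120 in the Il1b KO and 105 between the knockouts, and the block changed no call of Gabra2, the neighbours or the lists.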
